A study of Arabidopsis thaliana and Boechera depauperata with 12 samples.

Results

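The genes described here are 10 *A. thaliana* genes of the abscisic acid (ABA) pathway, taken by identifier from a count table of 33977 genes. They are *NCED3* (AT3G14440) and *CYP707A1* (AT4G19230) of ABA metabolism, the phosphatase genes *ABI1* (AT4G26080), *ABI2* (AT5G57050), *HAB1* (AT1G72770) and *PP2CA* (AT3G11410), the transcription factor gene *ABF3* (AT4G34000), and the ABA-responsive genes *RD29A* (AT5G52310), *RD29B* (AT5G52300) and *RAB18* (AT5G66400). The study sequenced RNA of *A. thaliana* and of the thermotolerant mustard *Boechera depauperata* in 12 libraries, of which the 6 *A. thaliana* libraries hold these genes. Control plants (libraries W1 and W2) were kept at 22 °C, B/HS plants (basal heat stress, W3 and W4) were moved from there to 38 °C for 3 h, and A/HS plants (acquired heat stress, W5 and W6) had 1 h at 38 °C, 1 h of recovery at 22 °C and then 3 h at 43 °C. No mutant, transgene or chemical was used in any group, the ecotype and plant age are not given in the sources used here, and the replicates were prepared independently from germination onwards. A/HS differs from B/HS in the final temperature, the priming and the total time, so these cannot be told apart.

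ABA is a plant hormone known for closing stomata and for responses to drought, cold and salt. NCED enzymes cleave a carotenoid to start its synthesis and CYP707A enzymes hydroxylate it for breakdown. Receptors of the PYR/PYL family bind ABA and then block the clade A protein phosphatases, among them ABI1, ABI2, HAB1 and PP2CA, which frees SnRK2 kinases to activate ABF transcription factors. ABFs bind ABA-responsive elements (ABREs) in the promoters of target genes such as *RD29B* and *RAB18*, and many phosphatase genes are themselves induced by ABA.

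The libraries held between 11819511 and 15297546 counts, of which organelle genes took between 58.1 % and 74.9 %. Levels are given as CPM, the usual scale of counts relative to library size, after TMM scaling of whole libraries. A count of 0 allows a level of up to 0.280 CPM in the library with the highest limit, from 3 counts, for counting error only. Among 5 heat shock genes used to check the labels, changes against control ran from 3.70 to 3.88 (log2) after B/HS and from 3.07 to 3.78 after A/HS. The 2 control libraries differed, since these genes were between 2.03 and 2.3 times as high in W2 as in W1. The highest organelle share, 74.9 %, was that of W1. Which of the 2 is the unusual library cannot be told from these values. Root is the labelled tissue, and the data went against this. The study's methods name leaf tissue for its separate RT–PCR experiments and no tissue for the sequenced RNA. Of 15 root marker genes, all except *PYK10* and *NRT2.1* reached no more than 38 counts and between 0 and 6 were at 0 in a library, while each of 10 genes of green leaves had at least 1357 counts in every library. The summed CPM of the root markers was between 193 and 232 in the control libraries, between 52.9 and 60.1 after B/HS and 38.3 and 102 after A/HS. Nearly all of it was *PYK10*, with 190 and 228 CPM in control, 50.6 and 56.4 CPM after B/HS, and 30.8 and 84.0 CPM after A/HS. Other root markers were higher after A/HS, such as *NRT2.1* with 2.52 and 2.41 CPM in control and 4.91 and 5.49 CPM after A/HS. The 3 tested root markers had a median log2 change of −1.48 with B/HS and 1.08 with A/HS. Among these 3, *LRX1* reached the count level of the low-count filter only in the A/HS libraries. Its high value there was a condition of its being tested, so these medians are a description only. The summed CPM of the green leaf genes was between 7462 and 9099 in control, 7530 and 8433 after B/HS, and 4842 and 6483 after A/HS. The 4 guard cell markers, *MYB60*, *FAMA*, *KAT1* and *HT1*, whose cells respond strongly to ABA, summed to between 32.2 and 32.7 CPM in control, between 14.0 and 15.6 CPM after B/HS and between 15.1 and 18.3 CPM after A/HS, with none at 0. The part of these shifts in tissue markers in the results that follow was not tested, and in whole tissue fewer cells of a type and less RNA per cell cannot be told apart.

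*RD29A*, whose hydrophilic protein accumulates under dehydration and cold, rose after both heat treatments and more after A/HS. It had 9.14 and 7.70 CPM in the control libraries, 21.7 and 20.9 CPM after B/HS, and 59.9 and 55.2 CPM after A/HS. The 3 conditions did not overlap, and the libraries of a condition lay close together. *RD29A* was 2.54-fold higher after B/HS than in control (log2 1.34 ± 0.19 SE, adjusted *P* = 0.00014, edgeR) and 6.86-fold higher after A/HS (log2 2.78 ± 0.19, adjusted *P* = 1.88e-06, edgeR). In the direct comparison it was 2.70-fold higher after A/HS than after B/HS (log2 1.43 ± 0.18, adjusted *P* = 0.000605, edgeR). The changes stayed past the adjusted *P* in all 11 alternatives of analysis and were 1.18 after B/HS and 2.62 after A/HS (log2) without the control library W2, in which *RD29A* was 0.842 times its level in W1.

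*RD29B* is the neighbour of *RD29A*, and its product is related. Both genes lie on the plus strand of chromosome 5 (TAIR10.1), *RD29B* from 21237021 to 21239531 in 5 exon blocks and *RD29A* from 21240717 to 21243644 in 4, with 1185 bases between them. *RD29B* had few reads, with 3 and 4 counts in the control libraries, 1 and 7 after B/HS, and 32 and 13 after A/HS. As levels these were 0.280 and 0.235 CPM in control, 0.0910 and 0.542 CPM after B/HS, and 2.21 and 0.977 CPM after A/HS. Both A/HS libraries exceeded all others, while the B/HS libraries lay on either side of the control libraries. *RD29B* was 6.15-fold higher after A/HS than in control (log2 2.62 ± 0.70, adjusted *P* = 0.0111, edgeR). The ratio of summed counts was 6.42, with an exact 95 % interval of 2.87 to 16.9 that covers counting error only. The adjusted *P* was lost without W1 (log2 2.73, adjusted *P* = 0.0680, edgeR), without W2 (2.44, 0.108) and without W5 (1.92, 0.104), and ranged from 0.000959 to 0.108 over all 11 alternatives. *RD29B* reached the count level of the low-count filter only in the A/HS libraries, so a high value there was a condition of its being tested.

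After B/HS the difference of *RD29B* from control was 0.37 ± 0.90 (log2, adjusted *P* = 0.774, edgeR), an error too wide to tell it from 0 or from the change of *RD29A*. Against B/HS, *RD29B* was 4.75-fold higher after A/HS (log2 2.25 ± 0.69, adjusted *P* = 0.0452, edgeR). This call depended on single libraries. It was lost without W1 (log2 2.25, adjusted *P* = 0.0730, edgeR), W2 (2.26, 0.0705), W3 (1.56, 0.329), W4 (4.0, 0.0622) or W5 (1.52, 0.254), and the adjusted *P* ranged from 0.00964 to 0.329 over 10 alternatives.

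The 250 bases before the annotated starts of the *RD29* pair are shown. They are compared for elements bound by ABFs and by the DREB factors of dehydration and cold. Capitals mark the ABRE core ACGTG, read on either strand (CACGT on the printed strand), and the core CCGAC of the dehydration-responsive element (DRE), read on either strand (GTCGG on the printed strand). The sequences are read 5′ to 3′ from TAIR10.1, with *RD29A* at chr5:21240467-21240716 and *RD29B* at chr5:21236771-21237020, both on the plus strand.
RD29A: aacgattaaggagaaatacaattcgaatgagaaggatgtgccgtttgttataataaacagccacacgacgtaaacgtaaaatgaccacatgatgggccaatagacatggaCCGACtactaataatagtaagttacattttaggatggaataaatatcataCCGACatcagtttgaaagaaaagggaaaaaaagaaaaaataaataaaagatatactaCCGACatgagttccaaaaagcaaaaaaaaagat
RD29B: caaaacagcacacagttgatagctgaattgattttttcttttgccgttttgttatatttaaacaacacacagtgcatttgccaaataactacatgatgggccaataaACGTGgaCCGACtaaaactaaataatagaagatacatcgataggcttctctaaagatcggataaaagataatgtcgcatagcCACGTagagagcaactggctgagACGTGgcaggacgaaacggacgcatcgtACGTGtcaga
The *RD29A* window holds 3 DRE cores, from −140 to −136, from −90 to −86 and from −33 to −29 counted from the gene start, and another lies just inside the gene from 5 to 9. It holds no ABRE core. Bases more than 250 before or 50 past the annotated start were not searched, so these letters do not show that *RD29A* lacks an ABRE. The *RD29B* window holds 4 ABRE cores, beginning at −143, −61, −38 and −10, and 1 DRE core from −136 to −132. Of 27443 protein-coding genes, 26.7 % have an ABRE core, 15.0 % a DRE core and 0.481 % a heat shock element of 3 inverted units between 250 bases before and 50 bases after the start. Of the 10 genes, 6 have an ABRE core there, 3 a DRE core and 0 this heat shock element. Such matches describe the letters of this window only.

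*RAB18*, which encodes a dehydrin, a hydrophilic protein of drying tissue, is a classical ABA marker. It lies on the minus strand of chromosome 5 (26518277 to 26519447), overlaps AT5G66410 on the other strand by 11 bases, and has 3 ABRE cores in the window. Its level was 5.22 and 4.65 CPM in control, 4.46 and 5.42 CPM after B/HS, and 8.17 and 6.69 CPM after A/HS. The B/HS libraries spanned the control libraries and the A/HS libraries lay above both. The difference after B/HS was 0.01 ± 0.25 (log2, adjusted *P* = 0.974, edgeR). After A/HS it was 0.60 ± 0.24 (log2, adjusted *P* = 0.0649, edgeR), which did not pass the threshold of 0.05 here or in any of the 11 alternatives. A/HS exceeded B/HS by 0.58 ± 0.24 (log2, adjusted *P* = 0.117, edgeR).

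**Figure D1:**
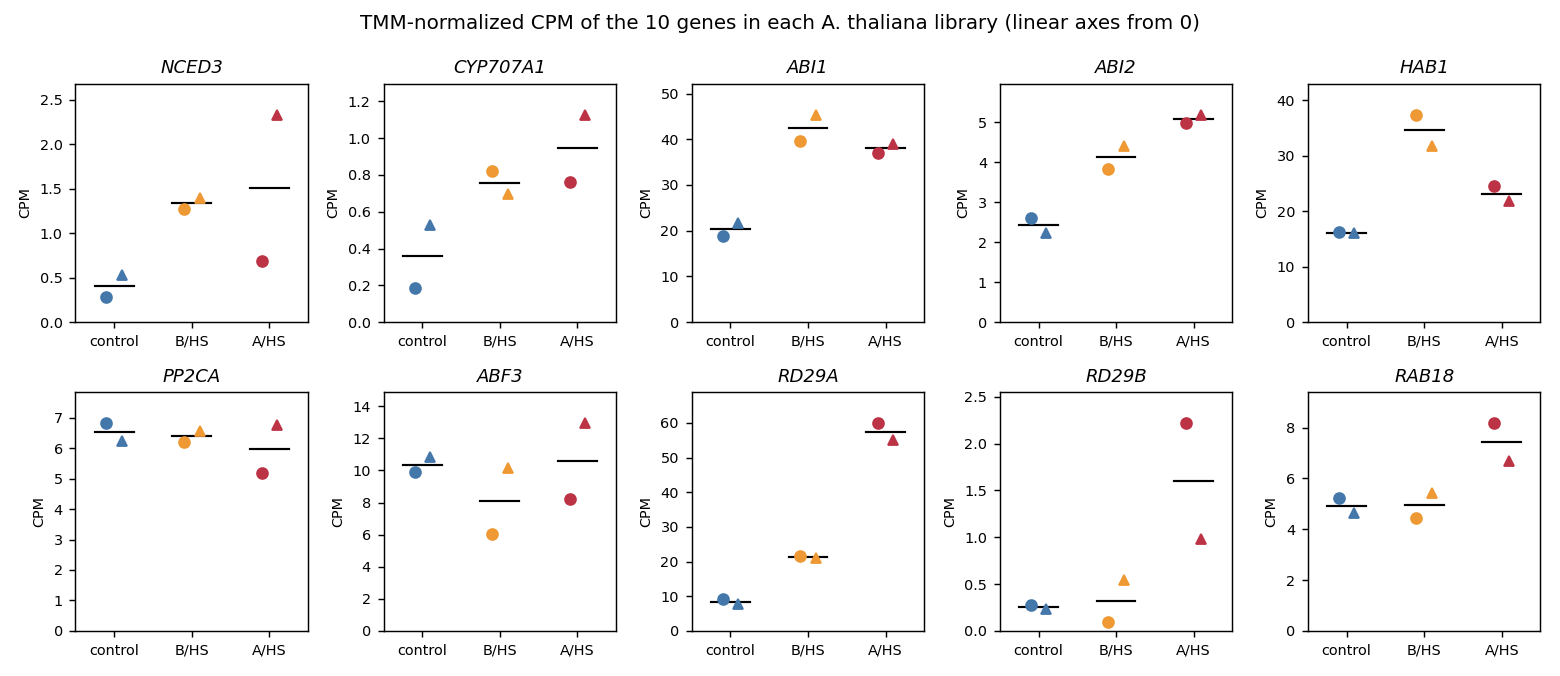
Level of each of the 10 genes in TMM-normalized CPM (vertical axes, linear and starting at 0, each with its own scale) in the 2 libraries of control, B/HS and A/HS, with circles for the first library (W1, W3, W5), triangles for the second (W2, W4, W6) and bars for the mean. *RD29A* climbs from 9.14 and 7.70 CPM to 59.9 and 55.2 CPM across conditions that do not overlap, while *PP2CA* lies between 5.19 and 6.81 CPM in all libraries.

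The phosphatase genes *ABI1*, *HAB1* and *ABI2*, whose products hold the pathway off in the absence of ABA, were between 1.43- and 2.14-fold higher after heat stress. *ABI1* (chromosome 4, 13219915 to 13222376, minus strand) had 18.9 and 21.7 CPM in control, 39.5 and 45.4 CPM after B/HS, and 37.1 and 39.0 CPM after A/HS. All 4 heat-stressed libraries exceeded both control libraries. *ABI1* rose 2.08-fold after B/HS (log2 1.06 ± 0.18, adjusted *P* = 0.000583, edgeR) and 1.87-fold after A/HS (log2 0.90 ± 0.18, adjusted *P* = 0.00217, edgeR). Both calls held in all 11 alternatives, with log2 changes from 0.98 to 1.14 and from 0.82 to 0.97. The direct difference of A/HS from B/HS was −0.16 ± 0.18 (log2, adjusted *P* = 0.589, edgeR). *ABI1* overlaps AT4G26070 on the other strand by 22 bases.

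*HAB1* (chromosome 1, 27389948 to 27393327, plus strand) was 16.3 and 16.0 CPM in control, 37.4 and 31.7 CPM after B/HS, and 24.5 and 21.8 CPM after A/HS. The conditions did not overlap, and B/HS was highest. It rose 2.14-fold after B/HS (log2 1.1 ± 0.19, adjusted *P* = 0.000462, edgeR), a call that held in all 11 alternatives. After A/HS it rose 1.43-fold (log2 0.52 ± 0.19, adjusted *P* = 0.0431, edgeR). That call was lost in 9 of 11 alternatives, among them each fit without W1, W2, W3, W4 or W5 (log2 from 0.44 to 0.54), and the adjusted *P* ranged from 0.0381 to 0.184. The difference of A/HS from B/HS for *HAB1* was −0.58 ± 0.18 (log2), and this did not pass (adjusted *P* = 0.0504, edgeR; 0.0497 to 0.374 over the alternatives).

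*ABI2* (chromosome 5, 23087122 to 23089631, plus strand), the closest relative of *ABI1*, had 2.61 and 2.23 CPM in control, 3.82 and 4.41 CPM after B/HS, and 4.98 and 5.19 CPM after A/HS. The 3 conditions did not overlap. It rose 1.72-fold after B/HS (log2 0.78 ± 0.28, adjusted *P* = 0.0407, edgeR) and 2.11-fold after A/HS (log2 1.08 ± 0.27, adjusted *P* = 0.00782, edgeR). The B/HS call was lost with DESeq2 (adjusted *P* = 0.179) and without W1 (log2 0.90, adjusted *P* = 0.0761, edgeR), W2 (0.61, 0.225), W3 (0.86, 0.0925) or W4 (0.69, 0.175). The A/HS call was lost with DESeq2 (adjusted *P* = 0.0520) and without W2 (log2 0.92, adjusted *P* = 0.0739, edgeR), within ranges of 0.0349 to 0.225 and 0.00247 to 0.0739 over the alternatives.

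*PP2CA* (chromosome 3, 3583782 to 3585850, minus strand), a phosphatase gene of the same clade, stood at 6.81 and 6.23 CPM in control, 6.19 and 6.58 CPM after B/HS, and 5.19 and 6.77 CPM after A/HS. All conditions overlapped. The differences from control were −0.02 ± 0.23 after B/HS (log2, adjusted *P* = 0.947, edgeR) and −0.12 ± 0.23 after A/HS (adjusted *P* = 0.714, edgeR), so errors of this size leave room for a small change in either direction. Its window before the start is shown because it holds the most ABRE core matches of the 10 genes with each strand counted, a choice made after its values were seen. It is read on the minus strand at chr3:3585851-3586100 with the same capitals.
PP2CA: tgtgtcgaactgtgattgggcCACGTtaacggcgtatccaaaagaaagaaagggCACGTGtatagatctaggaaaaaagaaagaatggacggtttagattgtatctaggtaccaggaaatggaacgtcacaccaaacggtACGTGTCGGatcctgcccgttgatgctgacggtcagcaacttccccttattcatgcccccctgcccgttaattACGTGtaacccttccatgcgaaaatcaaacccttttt
The cores begin at −229, −196, −195, −110 and −37. Those at −196 and −195 are one CACGTG read on both strands, so by separate sites *PP2CA* holds no more than *RD29B*. A DRE core from −106 to −102 shares 1 base with the ABRE core before it.

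**Figure D2:**
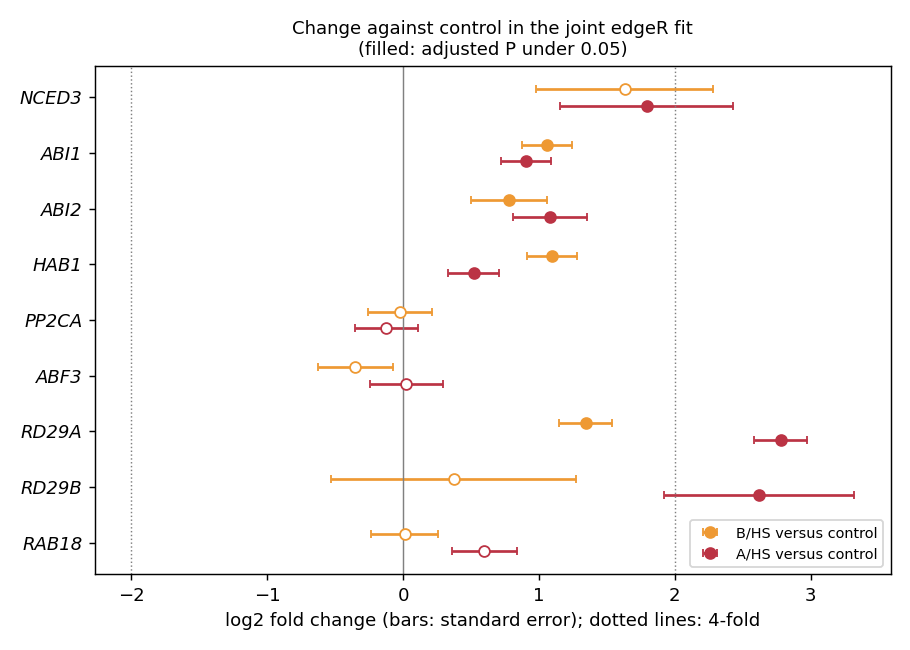
Log2 fold change of the 9 tested genes (horizontal axis; *CYP707A1* did not pass the low-count filter) after B/HS (orange) and A/HS (red) against the same control libraries, with bars for 1 SE, filled points for an adjusted *P* under 0.05 and dotted lines at 4-fold. *RD29A* and *RD29B* pass 4-fold after A/HS, at 2.78 and 2.62, and *PP2CA* and *ABF3* lie near 0.

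*ABF3* (chromosome 4, 16295334 to 16298285, plus strand) encodes one of the ABRE-binding transcription factors that SnRK2 kinases activate. Its level was 9.89 and 10.8 CPM in control, 6.01 and 10.1 CPM after B/HS, and 8.23 and 12.9 CPM after A/HS. The libraries of each heat treatment were far apart and overlapped the control libraries. The differences from control were −0.35 ± 0.28 (log2, adjusted *P* = 0.330, edgeR) and 0.02 ± 0.27 (adjusted *P* = 0.953, edgeR). *ABF3* overlaps AT4G34020 on the other strand by 24 bases.

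*NCED3* (chromosome 3, 4831286 to 4834015, minus strand, 1 exon) encodes the NCED enzyme best known for ABA synthesis in drying leaves. It had 3 and 9 counts in control, 14 and 18 after B/HS, and 10 and 31 after A/HS, which is 0.280 and 0.529 CPM, 1.27 and 1.39 CPM, and 0.692 and 2.33 CPM. Every heat-stressed library exceeded both control libraries, and the A/HS libraries were far apart. The difference after B/HS was 1.63 ± 0.65 (log2, adjusted *P* = 0.0629, edgeR), with a ratio of summed counts of 3.09 (exact 95 % interval 1.55 to 6.59, counting error only). It passed in 4 of 11 alternatives. After A/HS *NCED3* was 3.46-fold higher (log2 1.79 ± 0.64, adjusted *P* = 0.0422, edgeR). This call was lost with DESeq2 (adjusted *P* = 0.108) and without W1 (log2 1.5, adjusted *P* = 0.198, edgeR), W2 (2.35, 0.0970), W3 (1.80, 0.0643), W4 (1.81, 0.0602) or W6 (0.70, 0.495), and without W5 the change was 2.43 (log2), with an adjusted *P* from 0.0055 to 0.495 over 10 alternatives. *NCED3* reached the filter's count level in both B/HS libraries and 1 A/HS library and in no control library, so it was tested because of its level under heat stress.

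*CYP707A1* (chromosome 4, 10521259 to 10523961, plus strand), which encodes an ABA 8′-hydroxylase, fell below the filter and was not tested with the others. Its counts were 2 and 9 in control, 9 and 9 after B/HS, and 11 and 15 after A/HS, or 0.187 and 0.529 CPM, 0.819 and 0.697 CPM, and 0.761 and 1.13 CPM. All heat-stressed libraries lay above both control libraries on the CPM scale. The ratio of summed counts was 1.90 after B/HS (exact 95 % interval 0.849 to 4.45) and 2.36 after A/HS (1.13 to 5.29), for counting error only. With the filter removed, the differences were 0.95 ± 0.72 (log2, adjusted *P* = 0.361, edgeR) and 1.27 ± 0.69 (adjusted *P* = 0.169, edgeR), and a change was not detectable at this depth.

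As a group, 9 of the 10 genes were tested, and B/HS and A/HS were compared with the same control libraries. Genes were called DE where the adjusted *P* was under 0.05 and the level differed 4-fold or more, the thresholds of the study. After B/HS 0 of the 9 genes were DE, where 8.69 % of the 17669 tested genes were. By the adjusted *P* alone 4 were higher and 0 lower, against 20 % and 19.7 % of all tested genes, 5 had an unadjusted *P* under 0.05, and DESeq2 called 0 DE and 3 by its adjusted *P*. After A/HS 2 were DE, *RD29A* and *RD29B*, both higher, where 2.92 % of all tested genes were DE and higher. By the adjusted *P* alone 6 were higher and 0 lower after A/HS, against 18.3 % and 17.6 % of all tested genes, and DESeq2 gave 2 DE genes and 3 by its adjusted *P*. Without the control library W2, 0 genes were DE after B/HS and 1, *RD29A*, after A/HS. Between A/HS and B/HS 1 gene, *RD29B*, was DE, against 1.78 % of all tested genes, and *RD29A* and *RD29B* passed the adjusted *P*, against 13.9 %. Since *NCED3* and *RD29B* were tested through their heat-stressed libraries, these counts do not stand for all members.

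Both B/HS libraries exceeded both control libraries for 5 of the 9 tested genes and for 36.6 % of all tested genes, and for A/HS the numbers were 7 of 9 and 34.7 %. No gene of the 10 had both heat-stressed libraries below both control libraries, against 37.4 % (B/HS) and 33.9 % (A/HS) of all tested genes. The 9 genes had medians of 0.78 (log2, B/HS) and 0.90 (log2, A/HS), beside −0.02 and 0.02 for all tested genes. These counts and medians include *NCED3* and *RD29B*, which had to be high under heat stress to be tested, and are given as a description only. With 2 libraries against 2 an exact permutation test cannot go below a two-sided *P* of 0.333, so all calls rest on the spread that edgeR estimated across genes.

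Levels of different genes were compared per kilobase of exon. In control plants *ABI1* was highest, at 9.37 ± 0.899 CPM per kb (SD, n = 2), followed by *HAB1* (5.78 ± 0.0844), *RAB18* (4.53 ± 0.376), *ABF3* (4.24 ± 0.269), *PP2CA* (3.62 ± 0.227), *RD29A* (3.16 ± 0.382) and *ABI2* (1.06 ± 0.117). *RAB18* and *ABF3*, and *PP2CA* and *RD29A*, did not differ beyond their spread. *CYP707A1*, *NCED3* and *RD29B* were lowest, at 0.169 ± 0.115, 0.148 ± 0.0646 and 0.119 ± 0.0146 CPM per kb, and did not differ beyond their spread. After B/HS *ABI1* (19.6 ± 1.91 CPM per kb) and *HAB1* (12.4 ± 1.44) were still first and second and *RD29A* (7.99 ± 0.203) was the next. After A/HS *RD29A* was first at 21.6 ± 1.24 CPM per kb, *ABI1* had 17.5 ± 0.628 and *HAB1* 8.29 ± 0.682, and *RD29B*, at 0.735 ± 0.403, still lay among the lowest.

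Of 64 other genes of the pathway, in 8 lists by role, 46 were tested. The remaining 18 reached no more than 27 counts, and 3 of them were at 0 in all 6. After B/HS 8 of the 46 were DE (6 higher and 2 lower), against 8.69 % of all tested genes, and after A/HS 7 (6 higher and 1 lower), against 6.59 %. Among the DE genes, *BG2*, *ABCG40* and *HAI2* reached the filter's count level in some conditions only and were tested because of their level there. The lists were also chosen with earlier results of these data known, so these counts are a description only. By the adjusted *P* alone, B/HS gave 16 higher and 9 lower genes, and A/HS gave 13 and 6, beside shares over all tested genes of 20 % and 19.7 % for B/HS and 18.3 % and 17.6 % for A/HS. Without W2 the number DE after A/HS was 11. In the direct comparison 0 were DE by edgeR and 0 of the 42 with an adjusted *P* by DESeq2, while 7 were higher and 6 lower after A/HS by the adjusted *P* (edgeR) and 19 had an unadjusted *P* under 0.05.

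**Figure D3:**
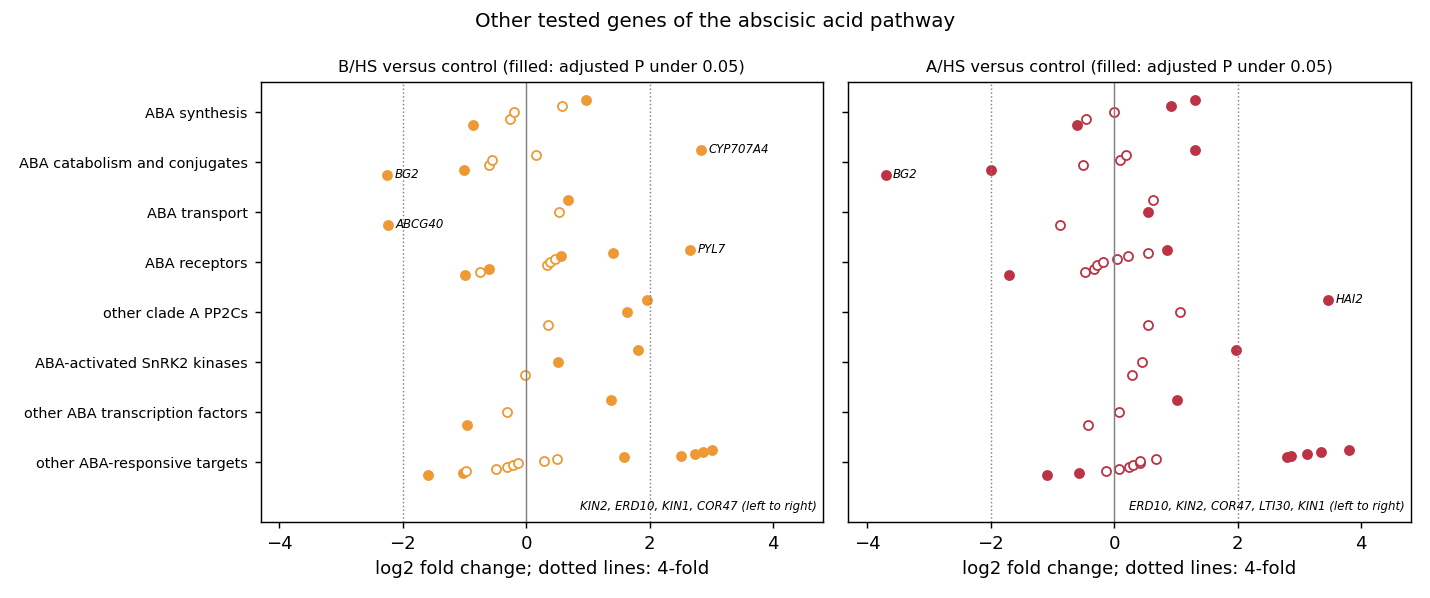
Log2 fold change against control (horizontal axes) of the 46 tested genes of 8 other ABA lists (rows) after B/HS (left, orange) and A/HS (right, red), with filled points for an adjusted *P* under 0.05, dotted lines at 4-fold and names for DE genes. Each list holds points on both sides of 0 except the phosphatases after both treatments and the kinases after A/HS, and the DE targets lie between 2.5 and 3.81.

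Genes of ABA synthesis showed small changes, with 5 tested and 0 DE. By the adjusted *P* 1 was higher and 1 lower after B/HS, and A/HS gave 2 and 1, beside 20 % and 19.7 % of all tested genes and 18.3 % and 17.6 %. The largest was *ABA2*, which encodes the dehydrogenase that makes abscisic aldehyde. It had 0.933 and 0.941 CPM in control, 1.91 and 0.929 CPM after B/HS, and 2.21 and 2.48 CPM after A/HS. It rose after A/HS (log2 1.31 ± 0.44, adjusted *P* = 0.0324, edgeR), a call lost with DESeq2 (adjusted *P* = 0.137) and without W1, W2, W5 or W6 (log2 1.25 to 1.4, adjusted *P* from 0.0525 to 0.147, edgeR).

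Among the 6 genes of ABA breakdown and conjugates, all tested, the relatives of *CYP707A1* differed. *CYP707A4* went from 3.27 and 5.0 CPM in control to 37.3 and 23.0 CPM after B/HS and to 10.4 and 10.7 CPM after A/HS. B/HS was highest and the conditions did not overlap. It was 7.12-fold higher after B/HS (log2 2.83 ± 0.27, adjusted *P* = 6.31e-06, edgeR), 2.49-fold higher after A/HS (log2 1.32 ± 0.28, adjusted *P* = 0.00257, edgeR), and lower after A/HS than after B/HS (log2 −1.51 ± 0.25, adjusted *P* = 0.00275, edgeR), the last of which was lost without W3 (−1.12, 0.0593). *CYP707A2*, named after its values were seen, fell from 13.2 and 13.2 CPM in control to 5.10 and 7.90 CPM after B/HS and to 3.46 and 3.16 CPM after A/HS. It changed by −1.01 ± 0.24 (log2, adjusted *P* = 0.00446, edgeR) and by −1.99 ± 0.25 (adjusted *P* = 6.68e-05, edgeR), and the B/HS call was lost without W3 (log2 −0.76, adjusted *P* = 0.0658, edgeR; 0.000192 to 0.0658 over the alternatives). *BG2*, whose glucosidase frees ABA from its glucose ester, fell from 3.73 and 3.94 CPM in control to 1.00 and 0.619 CPM after B/HS and to 0.415 and 0.150 CPM after A/HS. It was DE after both, at −2.25 ± 0.44 (log2, adjusted *P* = 0.0013, edgeR; −1.91 and under 4-fold without W4) and −3.70 ± 0.50 (adjusted *P* = 0.000113, edgeR; −4.58 without W5). *BG2* reached the filter's count level in both control libraries, 1 B/HS library and no A/HS library, so it was tested because of its level in control.

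In ABA transport, *ABCG40*, an importer of ABA at the plasma membrane, had 3.27 and 3.82 CPM in control, 0.637 and 0.852 CPM after B/HS, and 1.80 and 2.1 CPM after A/HS. The conditions did not overlap, and B/HS was lowest. It fell after B/HS (log2 −2.23 ± 0.39, adjusted *P* = 0.000649, edgeR), and after A/HS the difference was −0.87 ± 0.34 (adjusted *P* = 0.0612, edgeR). *ABCG40* reached the filter's count level in the control and A/HS libraries and in no B/HS library, where it had 7 and 11 counts. It was thus tested because of its level outside B/HS. Among 9 tested receptor genes, B/HS gave 3 higher and 2 lower, and A/HS gave 1 and 1, beside 20 % and 19.7 %, and 18.3 % and 17.6 %, of all tested genes. The receptor gene *PYL7* had 2.43 and 4.23 CPM in control, 25.7 and 17.8 CPM after B/HS, and 5.95 and 6.47 CPM after A/HS. It was 6.31-fold higher after B/HS (log2 2.66 ± 0.27, adjusted *P* = 9.75e-06, edgeR) and lower after A/HS than after B/HS (log2 −1.80 ± 0.26, adjusted *P* = 0.00118, edgeR). Of the 1240 exon bases of *PYL7*, 571 lie within AT4G01030 on the other strand. Reads from this part may come from either gene. The strand setting of the counts is not given in the sources used here.

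Of the other clade A phosphatases, 3 of 5 genes were tested. By the adjusted *P* 2 rose after B/HS and 1 after A/HS, beside 20 % and 18.3 % of all tested genes. *HAI2*, a phosphatase gene induced by ABA, had 3 and 4 counts in control (0.280 and 0.235 CPM), 1.09 and 0.929 CPM after B/HS, and 3.88 and 1.88 CPM after A/HS. The conditions did not overlap. It was DE after A/HS (log2 3.46 ± 0.56, adjusted *P* = 0.000451, edgeR; 2.85 without W5), and the ratio of summed counts was 11.6 (exact 95 % interval 5.36 to 29.7, counting error only). Its difference after B/HS was 1.95 ± 0.65 (log2, adjusted *P* = 0.0285, edgeR), a call lost with DESeq2 and without W1, W2, W3 or W4 (log2 1.77 to 2.09, adjusted *P* from 0.0646 to 0.152). *HAI2* reached the filter's count level in the heat-stressed libraries only. Among the 3 ABA-activated kinase genes, *SNRK2.3* went from 9.89 and 12.4 CPM in control to 42.8 and 36.1 CPM after B/HS and to 39.9 and 48.3 CPM after A/HS. It rose by 1.81 ± 0.21 (log2, adjusted *P* = 2.05e-05, edgeR) and by 1.97 ± 0.21 (adjusted *P* = 1.6e-05, edgeR), both under 4-fold. Of 3 tested genes for other ABA transcription factors, *ABF4*, a relative of *ABF3*, had 5.78 and 7.82 CPM in control, 16.3 and 19.4 CPM after B/HS, and 12.9 and 15.1 CPM after A/HS. It rose by 1.37 ± 0.22 (log2, adjusted *P* = 0.000259, edgeR) and by 1.03 ± 0.22 (adjusted *P* = 0.0026, edgeR), while *ABF3* overlapped control after both treatments.

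**Figure D4:**
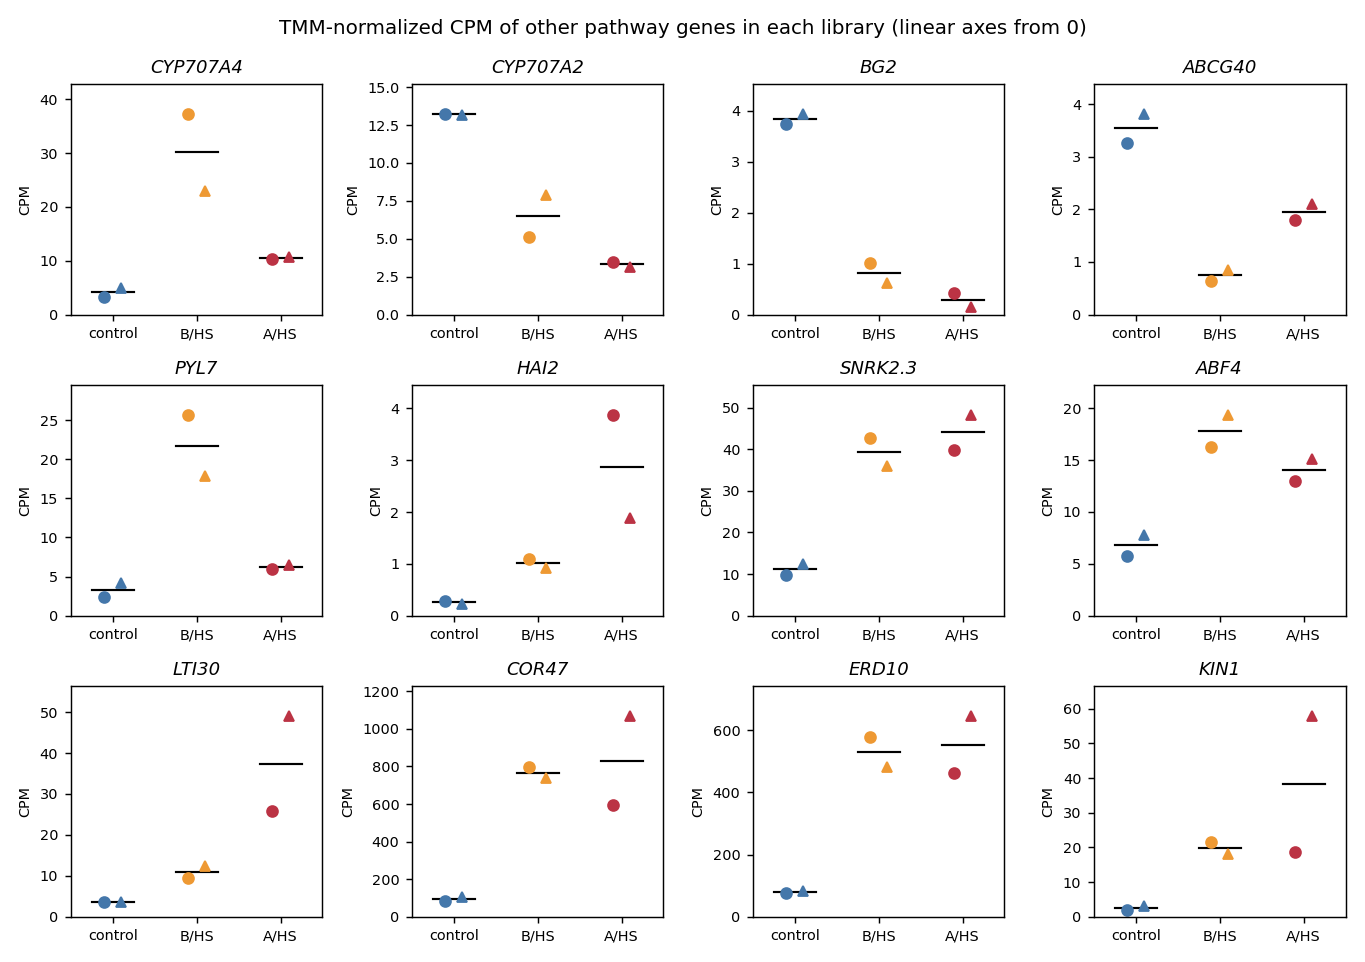
Level of 12 other genes of the ABA pathway in TMM-normalized CPM (vertical axes, linear and starting at 0, each with its own scale) in control, B/HS and A/HS, with circles and triangles for the first and second library and bars for the mean. *CYP707A4* and *PYL7* are highest after B/HS, *BG2* and *CYP707A2* fall in both treatments, and *LTI30* is highest after A/HS.

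The other 14 tested target genes divided. After B/HS 5 were higher and 2 lower, and 4 of those higher were DE. After A/HS 5 were higher and 2 lower, and the 5 were DE. The lower genes are named after their values were seen. After B/HS they were *P5CS1* and *RD22* (log2 −1.59 and −1.03, adjusted *P* = 4.68e-05 and 0.00062, edgeR), and both calls held in all 11 alternatives. After A/HS they were *P5CS1* and *ATHB12* (log2 −0.56 and −1.08, adjusted *P* = 0.0324 and 0.0432, edgeR), with calls lost in 7 and 5 of 11 alternatives. Of all tested genes, 20 % were higher, 19.7 % lower and 8.69 % DE in either direction after B/HS, and 18.3 % higher, 17.6 % lower and 6.59 % DE in either direction after A/HS. Those both DE and higher were 665 of 17669 after B/HS and 516 of 17669 (2.92 %) after A/HS. *COR47* and *ERD10*, both for dehydrins, had between 75.9 and 103 CPM in control and between 462 and 1068 CPM in the heat-stressed libraries. *COR47* was higher by 3.01 ± 0.31 after B/HS (log2, adjusted *P* = 8.96e-06, edgeR) and by 3.13 ± 0.31 after A/HS (adjusted *P* = 1.02e-05, edgeR), and *ERD10* by 2.73 ± 0.26 (adjusted *P* = 5.37e-06, edgeR) and 2.80 ± 0.26 (adjusted *P* = 6.48e-06, edgeR). The dehydrin gene *LTI30* had 3.64 and 3.65 CPM in control, 9.47 and 12.5 CPM after B/HS, and 25.7 and 49.0 CPM after A/HS. Like *RD29A* it was higher after A/HS than after B/HS (log2 1.76 ± 0.27, adjusted *P* = 0.0019, edgeR; 1.59, 0.0510 without W3), and its change after A/HS was 3.35 ± 0.30 (adjusted *P* = 6.1e-06, edgeR). *KIN1* and *KIN2*, neighbouring cold- and ABA-induced genes, were DE after both treatments. *KIN1* rose from 2.05 and 3.23 CPM to 21.5 and 18.1 CPM after B/HS (log2 2.86 ± 0.45, adjusted *P* = 0.000261, edgeR) and to 18.7 and 57.9 CPM after A/HS (log2 3.81 ± 0.45, adjusted *P* = 3.71e-05, edgeR). Without W5 the A/HS change of *KIN1* was 4.41 and without W6 2.79 (log2). *KIN2* changed by 2.5 ± 0.31 (log2, adjusted *P* = 4.33e-05, edgeR) and 2.87 ± 0.32 (adjusted *P* = 2.31e-05, edgeR). In each gene of the pair 1 run of 50 exon bases was also found elsewhere in the nuclear genome. The place of these matches was not recorded, and a few reads may be assigned wrongly.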

How the data were processed

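RNA was sequenced from 6 *A. thaliana* libraries, 2 per condition, and groups were taken from the temperature in the labels. The authors trimmed reads with fastx toolkit, aligned them to TAIR10 with TopHat (version 1.4.1 in the submitters' processing notes) and deposited raw read counts per gene, without normalization. The counting program and its strand setting are not given in the sources used here. The 6 columns of *B. depauperata* counts were not used. Counts were fitted with edgeR 4.0.16 (R 4.3.3), using TMM, filterByExpr and the quasi-likelihood test over all 6 libraries, which tested 17669 genes, and *P*-values were adjusted by Benjamini-Hochberg over all of them. SEs were computed as the size of the log2 change over the root of the F statistic. The fit was tested on simulated data. DESeq2 1.42.0, other normalizations and filters, nuclear genes only, 4 libraries compared and each library left out were tried as alternatives. Chi-square values of 6.87 to 28.7 per degree of freedom between libraries of 1 condition exceeded sampling noise. *P*-values rest on a spread estimated across genes and over the 3 conditions, from 2 libraries per condition.

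Positions and promoter sequences come from the TAIR10.1 genome (RefSeq), in which all 10 genes were found and whose introns matched 710 of 833 intron positions listed for TAIR10 within 1 base. No run of 50 exon bases of the 10 genes was found elsewhere in the nuclear genome. The window before *RAB18* is not shown because it lies within the neighbouring gene. All 10 genes are named, and of the other pathway genes those that were DE after either treatment or, in a list with none, the one with the largest change past the adjusted *P*. Other pathway genes named outside this rule are marked where they appear. The members and the lists were chosen with earlier results of these data known.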

Additional observations from a re-analysis of the deposited data

How the results depend on the processing

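Without the 4-fold threshold, the number of the 10 genes called was 4 after B/HS, 6 after A/HS and 2 between A/HS and B/HS, and the number of other pathway genes was 25, 19 and 13. DESeq2 gave an adjusted *P* for 7 of the 10 genes between A/HS and B/HS and called 0 of them DE, with no adjusted *P* for *RD29B*. With no filter beyond 1 count 1 other pathway gene was DE in that comparison. Leaving out each library in turn gave 0 to 0 of the 10 genes after B/HS, 1 to 2 after A/HS (1 without either control library) and 0 to 1 between A/HS and B/HS (0 without W1, W2, W3, W4 or W5). For the other pathway genes it gave 7 to 9, 7 to 11 (11 without W2) and 0 to 2. These fits assume that a lone library varies like the other groups, and the cause of these changes was not tested. Over all alternatives, 52 of 72 counts stayed within 1.5 times the value given, and of 293 log2 fold changes of the 10 genes 258 kept their direction and their side of the adjusted *P*, 30 lost the call, 5 gained it and 0 called values changed sign. No paired analysis was possible because the labels carry no replicate numbers. Depth limits *NCED3*, *CYP707A1* and *RD29B*, which had at most 32 counts in any library.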
